A study of Homo sapiens with 8 samples.

Results

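The RNA of P-body preparations was compared with the RNA of the cytosolic fraction in MOLM-13 cells, with 2 libraries of each, which are 4 of the 8 libraries of the series. MOLM-13 is an established human line of acute myeloid leukaemia with monocytic character. It carries a fusion of KMT2A with MLLT3 and an internal tandem duplication in FLT3, and both fractions come from cells with these lesions. The labels name no treatment for any of the 4 libraries. The other 4 libraries, P-body and cytosolic RNA of the erythroleukaemia line HEL, were used only where a change in MOLM-13 is set against that in HEL. Every gene with enough counts was included, which left 14089 of the 60196 gene symbols used. The labels do not say whether the replicates are separate cultures. The p-values therefore rest on the spread of the deposited libraries alone, and that spread may be technical. The study asked which RNAs P-bodies hold in myeloid leukaemia cells.

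P-bodies are granules of the cytoplasm that form without a membrane from RNA-binding proteins, decapping and deadenylation factors and messenger RNA. Messages held there are not being translated, and many of them can return to the ribosome. In other human cells P-body messages are known to be rich in A and U, and their codons often end in A or U.

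Library totals were 11000536 and 9868469 counts for P-bodies, against 5897625 and 7098927 for the cytosol. The common biological coefficient of variation was 0.0382. All 20 monocytic and granulocytic markers examined passed the filter on low counts. Their summed level was 3446 and 3540 CPM, counts scaled to a common library size, in the P-body libraries and 5854 and 5551 CPM in the cytosolic libraries. Only 2 of 18 erythroid and megakaryocytic markers passed, with sums of 28.9 to 34.2 CPM, and HBG1 and PPBP were at 0 in all 4 libraries. Of 14 lymphoid markers 4 passed, with sums of 116 to 178 CPM and CD3E and CD2 at 0. Of 13 epithelial and stromal markers 2 passed, with sums of 12.7 to 19.4 CPM. Each marker list was higher in the cytosolic libraries, and the part of other cells in any result was not tested.

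The P-body libraries differed from the cytosolic libraries at most genes. Of the 14089 genes, 4558 (32.4%) were called higher and 4015 (28.5%) lower in P-bodies at an adjusted p below 0.05 in edgeR's quasi-likelihood test, so that 60.8% were called. A change of at least 2-fold was called for 2150 genes upwards (15.3%) and 927 downwards (6.58%). Genes called higher made up 67.5% ± 0.485 of P-body counts and 41.9% ± 0.418 of cytosolic counts (SD, n = 2). Genes called lower made up 22.5% ± 0.439 and 44.3% ± 0.647. Both sets were picked by their calls in these same libraries, so the direction of these shares was set in advance. Both P-body libraries lay above both cytosolic libraries at 5529 genes (39.2%) and below them at 5725 genes (40.6%). All changes are relative, since no spike-in was used to scale them, and more molecules of a message in P-bodies cannot be told apart from fewer molecules of the others. Scaled by library totals in place of TMM, the median log2 change of all genes moved from -0.04 to -0.47, with 2903 genes higher and 7154 lower. Higher genes then made up 28.9% of the calls in place of 53.2%.

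**Figure D1:**
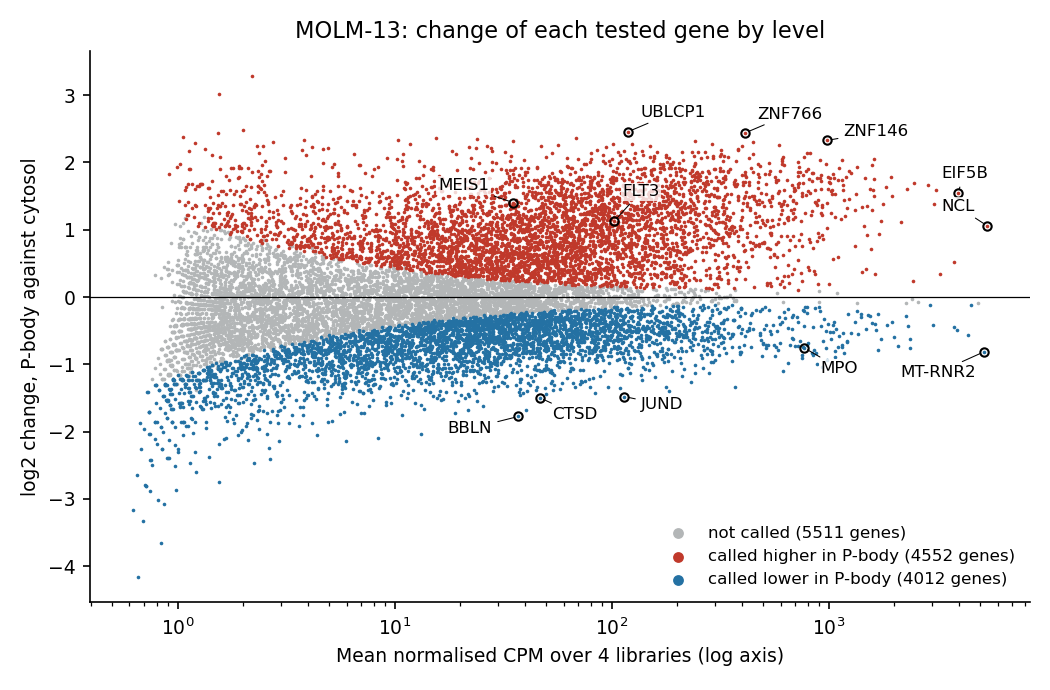
Log2 change of each gene between P-body and cytosolic libraries of MOLM-13 (vertical axis) against its mean normalised CPM over the 4 libraries (horizontal log axis), with calls at an adjusted p below 0.05 in colour. Genes on the Y chromosome are not drawn. At a mean of at least 20 CPM, changes run from 2.46 for UBLCP1 down to -1.85 for PLPPR3.

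The greatest changes among genes with a mean of at least 20 CPM were close to 5-fold. UBLCP1, a phosphatase of the nuclear proteasome, had 213 and 191 CPM in the P-body libraries and 37.0 and 36.6 CPM in the cytosolic libraries. The P-body libraries were both far above, and the log2 change was 2.46 ± 0.076 (SE, adjusted p = 3.7e-19, edgeR quasi-likelihood test). ZNF766, a KRAB zinc finger protein, had 682 and 701 CPM against 131 and 125 CPM (log2 change 2.44). GAPT, a membrane protein that binds the adaptor GRB2, had 117 and 113 CPM against 22.9 and 21.8 CPM (2.37). Genes were named here only where the groups did not overlap. Each pair of replicates of ZNF766 and GAPT lay close together. BORA, an activator of Aurora A (2.35), ZNF146 (2.33), EMC2, a subunit of the membrane protein insertase of the endoplasmic reticulum (2.32), ZNF675 (2.31), the cyclophilin PPIL4 (2.31) and ZNF181 (2.27) completed the set. One further gene that met the same rule lies on the Y chromosome and is not reported here.

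The lowest genes moved less far. PLPPR3, a neuronal membrane protein, had 7.22 and 14.6 CPM in the P-body libraries and 46.2 and 32.3 CPM in the cytosolic libraries, a log2 change of -1.85 ± 0.20 (SE, adjusted p = 1.1e-08, edgeR quasi-likelihood test). Its groups did not overlap, which the rule for naming required, but the replicates of each group lay well apart. BBLN had 18.2 and 15.3 CPM against 60.8 and 54.5 CPM (-1.77). CTSD, the lysosomal protease cathepsin D, had 23.8 and 24.9 CPM against 74.4 and 63.4 CPM (-1.50). The other 7 were the transcriptional cofactor CITED4 (-1.68), the linker histone H1-10 (-1.68), the keratin-associated FAM83H (-1.62), ZNF580 (-1.55), GAMT, an enzyme of creatine synthesis (-1.50), the AP-1 subunit JUND (-1.48) and TMEM250 (-1.47).

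The coding sequences of UBLCP1 and CTSD differ in the base that ends each codon. The first 30 codons of each are shown to make that visible, in lower case with the last base of every codon in capitals (GENCODE 29 on GRCh38, UBLCP1 from the gene at chr5:159263081-159286040 on the plus strand, CTSD from the gene at chr11:1752752-1764573 on the minus strand, both coding exons).
UBLCP1: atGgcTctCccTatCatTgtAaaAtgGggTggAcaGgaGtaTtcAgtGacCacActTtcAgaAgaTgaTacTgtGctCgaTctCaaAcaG
CTSD: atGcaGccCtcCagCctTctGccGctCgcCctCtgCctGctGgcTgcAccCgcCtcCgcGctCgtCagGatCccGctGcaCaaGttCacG
In these stretches 12 of 30 codons of UBLCP1 and 27 of 30 codons of CTSD end in G or C. Over the whole coding sequence the shares are 34.5% and 86.7%.

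The most abundant messages showed changes in both directions. NCL, the nucleolar RNA-binding protein nucleolin, had 7369 and 7130 CPM in P-body libraries and 3648 and 3311 CPM in cytosolic libraries (log2 change 1.06). The initiation factors EIF5B (5794 and 5917 against 2055 and 1960 CPM, 1.54) and EIF3A (5165 and 5031 against 1973 and 1969 CPM, 1.37) were also higher in both P-body libraries. HSP90AA1, a cytosolic chaperone, rose by 0.51, but with library totals the change was 0.08 (adjusted p = 0.084, edgeR quasi-likelihood test). The mitochondrial ribosomal RNA MT-RNR2 had 3703 and 3792 CPM against 6747 and 6455 CPM (-0.82). FTL, the ferritin light chain (-0.57), the nuclear noncoding RNA MALAT1 (-0.49) and PTMA, prothymosin alpha (-0.44), were lower too. EEF1A1, the elongation factor, had 4564 and 4887 CPM against 5049 and 4974 CPM, and its change of -0.08 did not pass the test (adjusted p = 0.067 in edgeR, but past the test at -0.52 with library totals). RPL7 had 4193 and 4491 CPM against 4908 and 4482 CPM, so its groups overlapped at a change of -0.11, and 6 of 12 alternatives lost its call.

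Genes that define this leukaemia were then described one by one. FLT3, the receptor kinase that carries the duplication, had 139 and 142 CPM in P-body libraries and 67.6 and 61.5 CPM in cytosolic libraries, a log2 change of 1.12 ± 0.070 (SE, adjusted p = 4.3e-13, edgeR quasi-likelihood test). Both P-body libraries were above both cytosolic libraries by about the same factor. MEIS1, the homeobox partner of HOXA9, had 53.0 and 49.0 CPM against 19.2 and 19.4 CPM (1.40). MYB, a transcription factor of immature myeloid cells, had 593 and 586 CPM against 285 and 279 CPM (1.06). The groups of MEIS1 and MYB lay far apart, with replicates close together. KMT2A, the histone methyltransferase of the fusion, had 184 and 187 CPM against 105 and 96.6 CPM (0.88). MLLT3, its fusion partner and a reader of acetylated histones, had 31.0 and 28.0 CPM against 17.7 and 18.3 CPM (0.71, but 0.27 with library totals, adjusted p = 0.056 in edgeR, and -0.19 under a correction for GC content and transcript length). Counts per gene symbol do not separate the fusion transcript from the normal ones.

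Among transcription factors of myeloid differentiation, SPI1, CEBPA and RUNX1 were lower in P-bodies. SPI1 (PU.1) had 65.0 and 71.3 CPM in P-body libraries and 102 and 106 CPM in cytosolic libraries (log2 change -0.62 ± 0.073, SE). CEBPA had 16.2 and 15.8 CPM against 30.2 and 27.8 CPM (-0.85), and RUNX1 had 41.2 and 40.7 CPM against 66.8 and 64.2 CPM (-0.68). All 3 factors were lower in both P-body libraries, with an adjusted p of 2.7e-06 or less in edgeR's quasi-likelihood test. Under a correction for GC content and transcript length, described further on, SPI1 was at 0.19, CEBPA at -0.09 (adjusted p = 0.57 in edgeR) and RUNX1 kept its call. MPO, the granule peroxidase, had 562 and 583 CPM against 995 and 936 CPM (-0.75). MYC had 130 and 125 CPM against 146 and 165 CPM (-0.29), a smaller difference whose call was lost without cytosolic replicate 2 (adjusted p = 0.051 in edgeR) and under that correction (0.065). IRF8 had 81.4 and 77.0 CPM against 82.6 and 81.2 CPM (-0.05, adjusted p = 0.59 in edgeR), which is within the spread of the replicates.

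Changes of the remaining fixed genes were small and depended on the scaling. HOXA9 had 45.1 and 38.3 CPM in P-body libraries and 37.8 and 37.3 CPM in cytosolic libraries, and its log2 change was 0.16 with TMM scaling (adjusted p = 0.19 in edgeR) but -0.28 with library totals. BCL2, which restrains apoptosis, had 50.8 and 43.8 CPM against 39.3 and 41.2 CPM (0.24, adjusted p = 0.040 in edgeR, and -0.20 with library totals). The related MCL1 had 71.0 and 69.2 CPM against 67.7 and 59.9 CPM (0.14, adjusted p = 0.14 in edgeR, and -0.30 with library totals). LYZ, lysozyme, had 196 and 195 CPM against 145 and 172 CPM (0.30, and -0.14 with library totals). The groups of all 4 genes stood apart only narrowly.

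**Figure D2:**
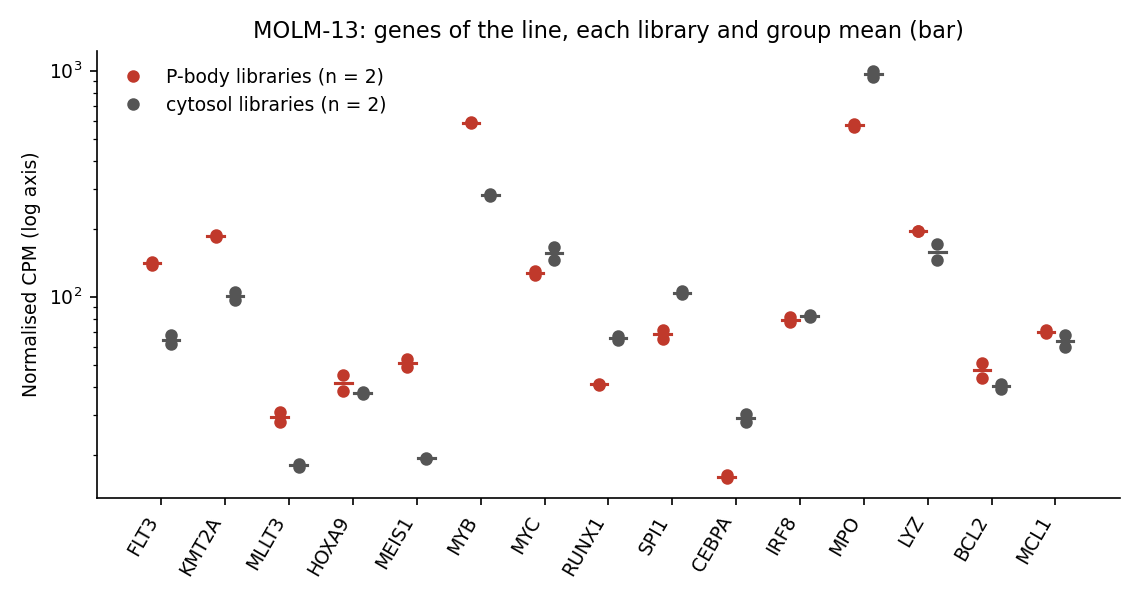
Normalised CPM (log axis) of 15 genes of this leukaemia in each P-body library and each cytosolic library of MOLM-13, with a bar at the mean of the 2 libraries. FLT3, KMT2A, MLLT3, MEIS1 and MYB lie higher in P-body libraries, and RUNX1, SPI1, CEBPA and MPO lie lower. HOXA9, BCL2, MCL1 and LYZ, slightly higher here, are lower when libraries are scaled by their totals.

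A set of 29 gene lists was read against the background of all genes, of which 32.4% were called higher and 28.5% lower, with a median log2 change of -0.04. No set test was made, and each list is described by its counts. The lists of this leukaemia did not move as blocks. The KMT2A complex and its elongation partners had a median of 0.69, 17 of its 28 members being higher and 9 lower, and a median of 0.07 once a trend on GC content and transcript length was taken out (11 higher, 4 lower). LEO1 (669 and 651 against 134 and 144 CPM, log2 change 2.25) and CDC73 (1.78), both of the PAF1 elongation complex, rose the most. MLLT1, the close relative of MLLT3 (-1.22), and the KMT2A cofactor HCFC1 (-1.14) were the lowest. The HOXA and MEIS1 programme had 8 of 22 tested members higher and 5 lower, and its median of 0.12 became -0.32 with library totals. JMJD1C, a demethylase-like protein, led it with 2512 and 2515 CPM against 641 and 648 CPM (1.96).

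FLT3, RAS, JAK and PI3K signalling genes were split evenly, with 21 of 57 higher, 19 lower and a median of 0.03 (-0.41 with library totals). RASA2, which switches RAS off (log2 change 2.06), and PTPN11, the phosphatase SHP2 (1.87), were highest. MAP2K2, a kinase below RAF, had 55.3 and 53.7 CPM against 135 and 140 CPM (-1.33). Its groups lay far apart, in the direction opposite to RASA2. JAK3 (-1.51) stood at only 0.955 to 3.63 CPM and was not called by DESeq2 (adjusted p = 0.085). Myeloid transcription factors had 17 of 44 higher and 15 lower (median -0.05), from BACH1, a haem-regulated repressor (1.90), and NFE2L2, the regulator of the oxidative stress response (1.65), down to the retinoid receptors RXRA (-1.08) and RARA (-1.01).

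Innate sensors leaned towards P-bodies, and granule proteins and surface receptors towards the cytosol. Toll-like receptors and other innate sensors had a median of 0.25, 20 of 43 tested members being higher and 10 lower (median -0.19 with library totals). TLR1, a surface receptor for bacterial lipopeptides (log2 change 2.36), and IFI16, a DNA sensor (1.78), were highest, and the adaptors TICAM1 (-0.96) and TOLLIP (-0.87) lowest. Interferon-stimulated genes had 14 of 37 higher and 8 lower (median 0.07, and -0.37 with library totals), with IFIT2 (2.14) and SP100 (2.08) at the top. By contrast, granule and lysosomal proteins had 9 of 43 higher and 19 lower, with a median of -0.29. CFD, complement factor D, had 98.5 and 104 CPM against 284 and 252 CPM (-1.40), while SERPINB1, an inhibitor of neutrophil elastase, rose by 1.09. Phagocyte surface receptors had 10 of 55 higher and 21 lower (median -0.17). The integrins split, with ITGA4 at 1.92 and ITGB2 at -0.85, and TYROBP, an adaptor of activating receptors, stood at -0.87. Antigen presentation had 2 of 20 higher and 10 lower, with CD74, the invariant chain, at -0.83, and both rises were those of the trimming peptidases ERAP2 (0.93) and ERAP1 (0.53). Under the correction for GC content and transcript length this list had 4 of 20 higher and 5 lower, and its median of -0.22 became 0.05. Neither ERAP2 (0.10) nor ERAP1 (-0.34) was called under it, and ERAP1 was not called with library totals (0.09). Without P-body replicate 1 the change of ERAP1 was 0.41.

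The machinery of chromosomes and mitosis was mostly higher in P-bodies with TMM scaling. For cohesin, condensin and the SMC5-SMC6 complex 21 of 31 members were higher and 6 were lower, with a median log2 change of 0.89, the highest of the 29 lists. SMC3, a core subunit of cohesin, had 1956 and 1918 CPM in P-body libraries and 530 and 533 CPM in cytosolic libraries (1.87), and the cohesin acetyltransferase ESCO1 had 296 and 280 CPM against 66.0 and 76.7 CPM (2.01). In both, every P-body library was more than 3 times every cytosolic one. CDCA5, which holds cohesin on chromatin, was lower (-0.67), as was the condensin subunit NCAPD2 (-0.52). Kinetochore and spindle checkpoint genes had 30 of 48 higher and 8 lower (median 0.65), from BORA (2.35) and the checkpoint kinase TTK (1.91) to INCENP (-0.70) and SPC24 (-1.14). DNA damage response and repair genes had 48 of 71 higher and 11 lower (median 0.66), with the end-joining factor XRCC4 (2.08) near the top. ERCC2 (-0.80) and XRCC3 (-0.81) were its lowest. Library totals lowered the medians of cohesin, kinetochore and repair genes to 0.45, 0.21 and 0.22, with 18, 22 and 36 members higher. With a trend on GC content and transcript length taken out, these medians were 0.26, 0.21 and 0.22, with 20, 21 and 36 members higher.

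Motors, tethers and proteases of ubiquitin followed the same direction. Kinesins, dynein and dynactin had 29 of 49 tested members higher and 11 lower, with DYNC1LI2, a light intermediate chain of dynein (979 and 981 against 201 and 207 CPM, log2 change 2.26), and KIF2A, a microtubule depolymerase (2.15), at the top. Golgins, tethers and VPS13 proteins had 29 of 41 higher and 4 lower, with a median of 0.80. GOLGA4, a golgin of the trans-Golgi, had 2678 and 2555 CPM against 628 and 631 CPM (2.06), and TMF1 stood at 1.81. Ubiquitin-specific proteases had 27 of 42 higher and 4 lower (median 0.63), with USP16 at 1832 and 1883 CPM against 442 and 466 CPM (2.03). Library totals lowered the medians of these 3 lists to 0.14, 0.36 and 0.19.

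Lists of gene expression machinery leaned the same way, less strongly. Aminoacyl-tRNA synthetases had 22 of 39 higher and 7 lower (median 0.45, and 0.01 with library totals). Among them RARS1 (log2 change 1.81) and TARS1 (1.72) stood against VARS1 (-0.91). Chaperonin and cytosolic chaperones had 26 of 45 higher and 7 lower (median 0.53, and 0.09 with library totals). Here DNAJB6 (1.74) and BAG5 (1.73) stood against the small heat shock protein HSPB1 (155 and 165 against 356 and 292 CPM, -1.02). SR proteins, hnRNPs and splicing kinases had 28 of 46 higher and 12 lower, and their median of 0.33 was -0.11 with library totals. Deadenylases and mRNA repressors, which act in P-bodies, had 17 of 33 tested members higher and 6 lower (median 0.36, and -0.08 with library totals). CNOT6, a catalytic subunit of the CCR4-NOT deadenylase, rose by 1.45. ZFP36L2 had 109 and 185 CPM in P-body libraries against 264 and 247 CPM, with P-body replicates far apart (-0.80, adjusted p = 0.089 with DESeq2). Nuclear pore and transport genes had 31 of 58 higher and 13 lower (median 0.30, and -0.14 with library totals).

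Selenoproteins and noncoding hosts of small nucleolar RNAs were mostly lower, and actin genes were divided. Of 16 tested selenoproteins 11 were lower and 1 higher, with a median of -0.55. The exception was TXNRD1, thioredoxin reductase (661 and 661 against 242 and 240 CPM, log2 change 1.46), and the lowest was SELENON (-1.43). Actin cytoskeleton genes had 34 of 69 lower and 22 higher (median -0.28), but 27 lower and 25 higher under the correction for GC content and transcript length, and ran from ARPC4, a subunit of the ARP2/3 complex (85.8 and 82.4 against 199 and 178 CPM, -1.16), to CFL2 (1.89) and TWF1 (1.85), which bind actin. Hosts of small nucleolar RNAs had 14 of 24 lower and 2 higher, with SNHG19 at 4.67 and 5.81 CPM against 21.2 and 21.4 CPM (-2.03). Mitochondrial ribosomal proteins were split, with 25 of 75 higher and 31 lower (median -0.07), and MRPS9 reached 2.14. Vacuolar ATPase subunits (7 of 16 higher and 5 lower), RAB GTPases (13 of 41 and 10), cyclins, CDKs and the RB-E2F axis (23 of 57 and 13) and apoptosis regulators (18 of 34 and 5) had medians of -0.02, -0.04, 0.17 and 0.22. With library totals these became -0.46, -0.48, -0.27 and -0.22.

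**Figure D3:**
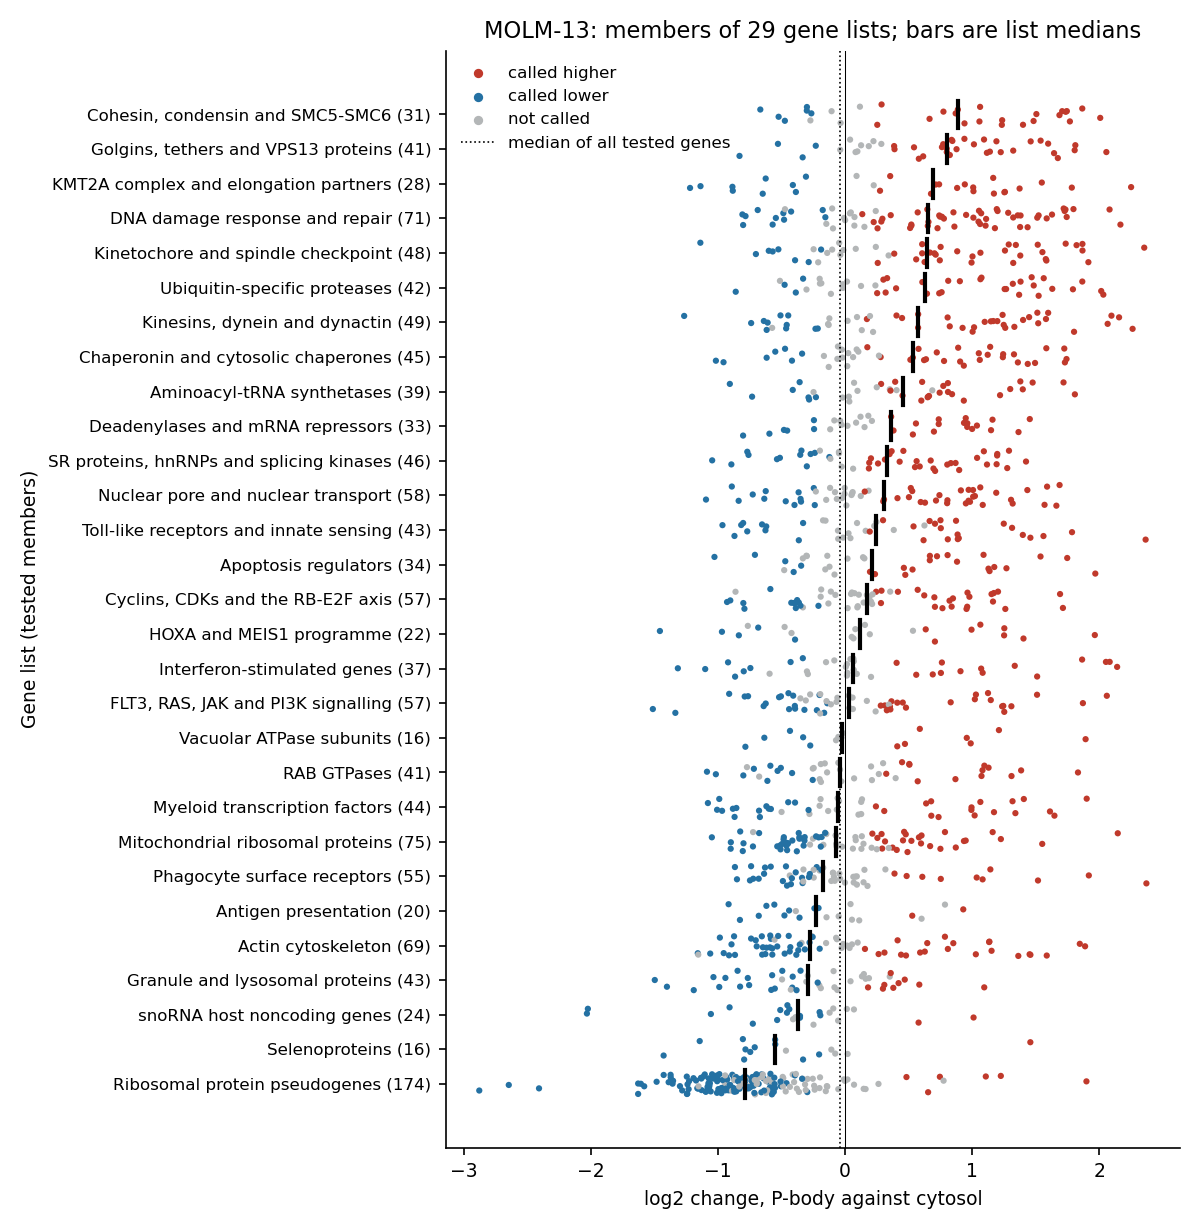
Log2 change between P-body and cytosolic libraries of MOLM-13 (horizontal axis) for each tested member of 29 gene lists (rows, with the number tested), coloured by call, with a bar at each list's median and a dotted line at the median of all genes. Medians run from 0.89 for cohesin and condensin to -0.78 for ribosomal protein pseudogenes. These pseudogenes can pass the filter on low counts through the cytosolic libraries alone, so their median is no measure of the family. With library totals every median moves down by about 0.44, which turns those of 9 lists from above to below 0.

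Transcripts of ribosomal protein pseudogenes were listed separately, because reads of the parent genes can be assigned to them. Of 1208 symbols 787 had a count and 174 passed the filter, and a symbol can pass through the cytosolic libraries alone, so their calls are no measure of the family. Of those that passed, 110 were lower and 6 higher. Summed over all 1208 symbols, they took 0.135% and 0.136% of counts in the P-body libraries and 0.297% and 0.272% in the cytosolic libraries. The cytosolic ribosomal protein genes took 5.58% and 5.82% against 11.0% and 10.4%. As shares of library totals, both sums were close to 2 times as high in the cytosolic libraries.

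Changes were ordered by the GC content of the transcript. Over 11223 coding genes with an annotated transcript, Spearman's correlation coefficient between transcript GC content and log2 change was -0.719. This is a correlation across genes of the same libraries, which share their depth and base composition, and is given without a p. In the 10 equal groups by GC content the median log2 change went from 1.03 at a median GC of 37.4% down to -0.71 at 64.4%. In the lowest group 900 of 1123 genes were called higher and 34 lower, and in the highest group 14 were called higher and 836 lower. The sixth group, near 50.6% GC, had 282 higher and 240 lower. The P-body libraries were also the deeper ones, by the totals given above, and the part of depth in these differences was not tested.

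**Figure D4:**
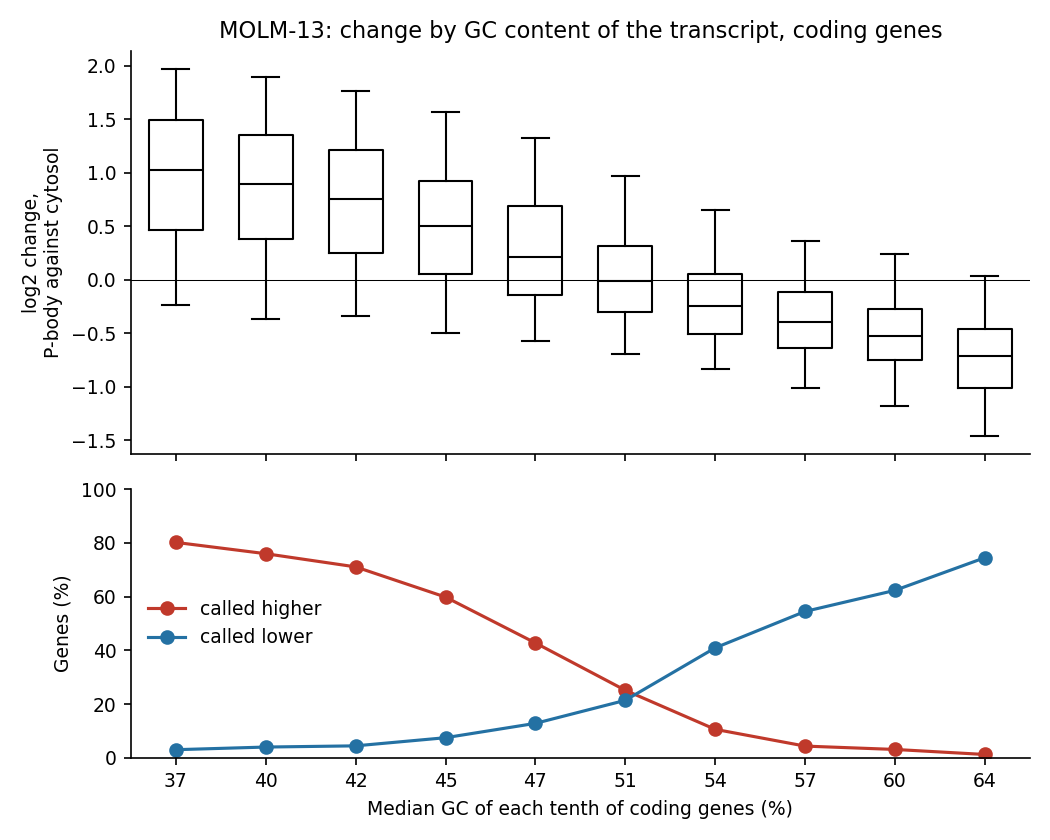
Coding genes of MOLM-13 in 10 equal groups by transcript GC content (horizontal axis, median GC in %). The upper panel shows the log2 change between P-body and cytosolic libraries as the median, quartiles and 5th to 95th percentiles, and the lower panel the percentage of genes called higher and lower, which cross near 51% GC.

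The parts of the transcript did not track the change equally. Spearman's coefficient was -0.718 for GC content of the coding sequence, -0.718 for that at the last base of codons and -0.645 for the 3′ UTR, but -0.225 for the 5′ UTR. Length tracked it less, with a coefficient of 0.232 for the transcript, 0.178 for the coding sequence, 0.205 for the 3′ UTR and 0.0304 for the 5′ UTR. For the span of the gene, introns included, it was 0.345, the largest of these lengths. With transcript GC content itself the coefficient was -0.385 for gene span, -0.310 for transcript length, -0.395 for 3′ UTR length and -0.0343 for coding length. The part of gene span apart from GC content was not tested. Within classes of GC content, transcript length made a small difference. Genes of low GC had a median log2 change of 0.62 when short, 0.88 at middle length and 0.91 when long. Genes of high GC stood at -0.49, -0.49 and -0.57. A smooth fit on GC content and transcript length accounted for 42.3% of the deviance of the log2 changes. With that trend removed, 4543 of the 8573 called genes were called in the same direction and 490 in the opposite one.

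Some lists kept part of their change beyond that trend. After removal of the trend the median of all genes was 0.01. Those of kinesins and dynein (0.33), golgins (0.32), chaperones (0.29), ubiquitin-specific proteases (0.26), cohesin and condensin (0.26) and aminoacyl-tRNA synthetases (0.24) stayed above it. The median of selenoproteins was -0.22, that of granule and lysosomal proteins -0.21 and that of small nucleolar RNA hosts -0.27. The medians of the KMT2A complex (0.07), SR proteins and hnRNPs (-0.03) and actin genes (-0.05) came near 0. Mitochondrially encoded mRNAs were little altered by it. Their 13 members took 0.464% and 0.475% of counts in P-body libraries and 0.925% and 1.06% in cytosolic libraries, and their median of -0.75 became -0.64 with the trend removed, when 12 were called lower.

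Close paralogs allowed the comparison within a family of proteins. Among members of the lists 84 pairs of close paralogs were usable, chosen after values had been seen. The member with the lower GC content at the last base of its codons had the greater log2 change in 60 of 84 pairs. Where that GC content differed by at least 20 percentage points, this held in 25 of 26 pairs, with a median difference in log2 change of 1.26. In 13 of these 26 pairs one member was called higher and its partner lower, with the AT-rich member as the higher one in each. Where it differed by less, it held in 35 of 58 pairs, with a median difference of 0.12.

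**Figure D5:**
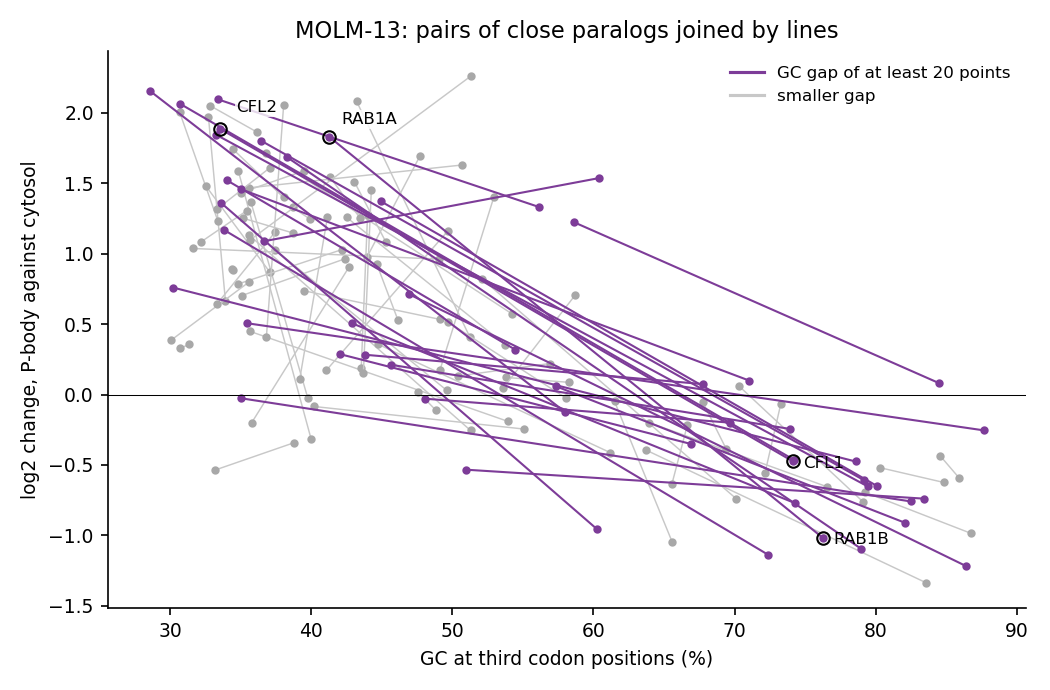
Log2 change between P-body and cytosolic libraries of MOLM-13 (vertical axis) against the GC content at the last base of codons (horizontal axis, %) for 84 pairs of close paralogs, each joined by a line. Purple lines join pairs that differ by at least 20 points, and 25 of these 26 lines slope downwards.

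Cofilins, which sever actin filaments, show the pattern at well measured levels. CFL2 had 43.8 and 44.5 CPM in P-body libraries and 12.8 and 11.1 CPM in cytosolic libraries (log2 change 1.89), while CFL1 had 561 and 570 CPM against 808 and 764 CPM (-0.47). The groups were apart in both genes, in opposite directions. The same was seen for the actin-binding twinfilins TWF1 (84.7 and 81.3 against 20.8 and 25.1 CPM, 1.85) and TWF2 (53.0 and 56.6 against 85.4 and 86.4 CPM, -0.65). Of the nuclear import receptors, TNPO1 had 213 and 208 CPM against 60.2 and 70.1 CPM (1.69) and TNPO2 28.6 and 30.9 CPM against 64.2 and 62.7 CPM (-1.09). RAB1A, a GTPase of transport from the endoplasmic reticulum to the Golgi, had 214 and 216 CPM against 59.6 and 60.9 CPM (1.83). RAB1B had only 2.34 and 1.42 CPM against 3.98 and 3.75 CPM (-1.02), and its call was lost in 4 of 12 alternatives.

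The start of the coding sequence of both RAB1 genes and the matching stretch of both cofilin genes are shown because they encode the same peptide (RAB1, 0 of 30 residues differ) or a similar one (cofilins, 6 of 30 differ) with different codons, with the last base of each codon in capitals (GENCODE 29 on GRCh38, coding exons). RAB1A lies at chr2:65070696-65130331 on the minus strand, RAB1B at chr11:66268533-66277492 on the plus strand, CFL2 at chr14:34706769-34714823 and CFL1 at chr11:65823022-65862026, both on the minus strand. The RAB1A stretch starts at codon 4 and the CFL1 stretch at codon 39 of the annotated transcript with the longest coding sequence. That CFL1 transcript encodes an extended N terminus. Its codon ccG therefore stands against the start codon of CFL2 and counts among the differences.
RAB1A: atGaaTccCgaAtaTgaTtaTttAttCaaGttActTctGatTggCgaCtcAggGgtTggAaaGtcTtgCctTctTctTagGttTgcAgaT
RAB1B: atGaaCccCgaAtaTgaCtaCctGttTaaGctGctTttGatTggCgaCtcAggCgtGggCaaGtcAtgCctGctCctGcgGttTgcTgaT
CFL2: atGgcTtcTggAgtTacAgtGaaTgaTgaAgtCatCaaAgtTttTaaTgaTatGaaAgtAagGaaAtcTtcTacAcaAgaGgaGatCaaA
CFL1: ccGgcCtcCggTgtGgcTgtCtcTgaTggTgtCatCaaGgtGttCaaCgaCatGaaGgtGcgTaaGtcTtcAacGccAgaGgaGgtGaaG
The RAB1 stretches differ at 14 of 30 last bases of codons and at 4 of the 60 other bases, and 11 codons of RAB1A against 20 of RAB1B end in G or C. The cofilin stretches differ at 20 of 30 and 9 of 60, and 9 codons of CFL2 against 21 of CFL1 end in G or C.

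Short motifs of the 3′ UTR went with the change in the same sense as base composition. The pentamer ATTTA of AU-rich elements was searched on the transcript strand of 11005 genes, with overlaps allowed. The 4392 genes with 3 or more had a median log2 change of 0.51, and the 3593 genes with none -0.32. At least one was found in 67.4% of these genes and in 62.6% of all annotated coding genes. The Pumilio motif TGTANATA, where N is any base, was present in 25.9% of genes, against 22.3% of all annotated coding genes. The 2847 genes with it had a median of 0.44 and those without it -0.07. Genes with either motif also had 3′ UTRs that were longer and lower in GC, 37.6% against 45.0% for TGTANATA, and the part of the motif itself was not tested.

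Changes of the genes that passed the filter also differed by class of gene and by chromosome. Coding genes had a median log2 change of 0.05 at a median GC of 49.0%. Among those that passed the filter, 710 processed pseudogenes had 301 lower and 85 higher, 614 antisense genes had 129 lower and 53 higher, and 486 long intergenic RNAs had 125 lower and 69 higher. The medians of these tested members were -0.62, -0.31 and -0.26 at a median GC of 47.1%, 48.3% and 46.6%. Many genes of these classes are low, and a gene can pass through the cytosolic libraries alone, so these values are no measure of the classes. Reads of parent genes can also be assigned to processed pseudogenes, as to the ribosomal protein pseudogenes above. Without a stated strand setting, antisense genes cannot be told apart from their partners. Of coding genes on chromosome 19, with a median GC of 59.4%, 511 of 871 were lower and 145 higher, although 4 of the greatest changes above, ZNF766, ZNF146, ZNF675 and ZNF181, lie there. On chromosome 4, with a median GC of 42.8%, 217 of 367 were higher and 42 lower.

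The difference between MOLM-13 and HEL was tested as an interaction in a fit of all 8 libraries, where 3875 of 17477 genes (22.2%) passed, 1600 with a greater and 2275 with a lower change in MOLM-13. The excess of lower changes depended on the scaling. With RLE size factors in place of TMM the counts were 1895 and 1861, and with library totals 1955 and 1830. Changes given for a single line come from a separate fit of that line, so they need not subtract to the interaction. GOLGA4 was chosen after its values had been seen. Its log2 change was 2.06 in MOLM-13 and 0.32 in HEL, and the difference was 1.55 ± 0.086 (SE, adjusted p = 2.2e-10, edgeR quasi-likelihood test), between 1.47 and 1.94 with any library left out. Of 41 golgin and tether genes, 19 had a greater change in MOLM-13 and 5 a lower one, and with any library left out 15 to 26 had a greater and 0 to 6 a lower one. The golgins were not alone in this. Aminoacyl-tRNA synthetases had 19 of 39 greater and 2 lower, and cohesin and condensin 12 of 31 and 4. Mitochondrial ribosomal proteins went the other way, with 8 of 75 greater and 32 lower and a median difference of -0.32. That median depended on single HEL libraries. It was -0.02 without HEL P-body replicate 1, -0.03 without HEL cytosolic replicate 1 and -0.04 without HEL cytosolic replicate 2. The median of all genes was then 0.19, 0.17 and 0.14. MEIS1 rose by 1.40 in MOLM-13 and 0.33 in HEL, a difference of 0.88 ± 0.15. MYB and KMT2A rose in both lines but less in MOLM-13, with differences of -0.67 and -0.79. The number of genes with a greater change in MOLM-13 was 3441 without HEL P-body replicate 1, 3053 without HEL cytosolic replicate 1 and 2825 without HEL cytosolic replicate 2, so that count depends on single HEL libraries.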

How the data were processed

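RNA of P-body and cytosolic fractions of MOLM-13 was sequenced in 4 libraries, after extraction with a miRNeasy Micro kit and library preparation with a NEBNext Ultra II kit, per the labels' protocols. The values the authors deposited are raw read counts per gene symbol, 1 column a library. STAR, SAMtools 1.12, DESeq2 and GRCh38 are named in the submitters' processing notes. Not given in the sources used here are the read counter, annotation, strand setting, filters and isolation of P-bodies.

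Of 61544 rows, 1348 with 112 repeated symbols (0.0381% to 0.0477% of counts) were left out. Counts were tested with edgeR 4.0.16 in R 4.3.3 (quasi-likelihood, TMM, filterByExpr with a smallest count of 10, Benjamini-Hochberg over all genes, called at an adjusted p below 0.05). SE is the log2 change divided by the square root of F. CPM are scaled by TMM factors, which were 0.860 and 0.858 in P-body and 1.16 and 1.17 in cytosolic libraries. Shares of counts are of library totals, and their SD is that between the 2 libraries of a group. The replicates differed by more than sampling noise (chi-square per degree of freedom 1.88 and 1.87).

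GC content, length and coordinates are those of GENCODE 29 (GRCh38) for the transcript with the longest coding sequence, matched for 56965 of 60196 symbols and 13824 of 14089 tested genes. The correction for GC content and transcript length took out a smooth trend fitted in mgcv 1.9.3, by offsets. The difference between lines was the interaction in a fit of all 8 libraries. DESeq2 1.42.0 was an alternative. Fits were tested on simulated counts in which few genes were changed, up and down alike, so the scaling of libraries that differ at most genes was not tested.

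Named genes were, among genes with a mean of at least 20 CPM, called and without overlap, the 10 with the greatest and the 10 with the lowest change, the 10 most abundant genes, up to 2 per direction and list, and 15 genes of this leukaemia. Some genes that met the rule are not reported here. The members, lists and rule were chosen with earlier results of these data known.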

Additional observations from a re-analysis of the deposited data

Results flagged for a closer look

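The change between P-bodies and cytosol was compared between MOLM-13 and HEL for 26 genes tested in both lines, which were those named for the greatest or lowest change, the genes of this leukaemia and GOLGA4, and the difference (MOLM-13 minus HEL, log2, edgeR's interaction test) passed the threshold for 17 of them, against 22.2% of all genes. Genes named for their great or low change in MOLM-13 were chosen on 1 of the 2 lines, which favours a difference in that direction. A greater change in MOLM-13 was found for GOLGA4 (1.549), MEIS1 (0.8808), BORA (0.793), EMC2 (0.7481), ZNF146 (0.5406), UBLCP1 (0.5158), PPIL4 (0.5114) and MYC (0.3168). A lower change in MOLM-13 was found for BBLN (-1.478), GAMT (-1.242), TMEM250 (-1.202), ZNF580 (-1.15), H1-10 (-0.953), CTSD (-0.8646), KMT2A (-0.7921), MYB (-0.6684) and MLLT3 (-0.6229). The call of CTSD was lost without HEL cytosolic replicate 2 (-0.45), that of H1-10 without HEL cytosolic replicate 1 (-0.59) and that of MLLT3 without HEL P-body replicate 1, cytosolic replicate 1 or cytosolic replicate 2 (-0.33 each). The call of MYC was lost with the replicate block (0.32) and without HEL P-body replicate 2 (0.27), MOLM-13 P-body replicate 1 (0.29), MOLM-13 P-body replicate 2 (0.35) or MOLM-13 cytosolic replicate 1 (0.23). The median difference of all genes was -0.11, and became 0.19, 0.17 and 0.14 without HEL P-body replicate 1, cytosolic replicate 1 and cytosolic replicate 2. It was -0.04 both with RLE size factors and with library totals.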

How the results depend on the processing

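With library totals in place of TMM, 2903 genes were higher and 7154 lower, 933 and 3159 of them by at least 2-fold. DESeq2 called 2082 lower, 401 by at least 2-fold, and 1239 with a lower change in MOLM-13 than in HEL. With the trend on GC content and transcript length removed, 743 genes were at least 2-fold higher and 569 at least 2-fold lower, and a test against a 2-fold change (glmTreat) called 1364 and 141. Leaving out each library in turn gave 602 to 823 genes at least 2-fold lower, with 602 without MOLM-13 cytosol replicate 1. It gave 1198 to 3441 genes with a greater and 880 to 2054 with a lower change in MOLM-13 than in HEL. The lower counts were 1215, 915 and 880 without HEL P-body replicate 1, cytosol replicate 1 and cytosol replicate 2. The cause of these shifts was not tested.

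Spearman's coefficient with transcript GC content was -0.375 with no filter, -0.762 at CPM of at least 5, -0.384 with DESeq2, which also used no filter, -0.607 in the fit of all 8 libraries and -0.702 to -0.676 with a library left out. For GC content at the last base of codons these were -0.391, -0.759, -0.401, -0.611 and -0.704 to -0.677, and for transcript length 0.123, 0.261, 0.132, 0.182 and 0.201 to 0.227.

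Same-numbered libraries showed no sign of pairing, with a correlation of their deviations of -0.0103 across genes. With 2 libraries a group, this cannot show that they were not paired. The replicate block gave 4574 genes higher and 4015 lower, 2147 and 905 of them by at least 2-fold.

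Log2 changes of the opposite sign were found with library totals for BCL2 (-0.20), HOXA9 (-0.28), LYZ (-0.14) and MCL1 (-0.30). With the trend removed they were found for BCL2 (-0.15), ERAP1 (-0.34), HOXA9 (-0.027), IRF8 (0.00055), LYZ (-0.16), MCL1 (-0.33), MLLT3 (-0.19), SPI1 (0.19) and USP20 (0.13). IRF8 was at 0.0027 with DESeq2 and at -0.072 to 0.012 with a library left out. The difference between lines took both signs with a library left out for JUND (-0.40 to 0.37), MCL1 (-0.0011 to 0.40), RUNX1 (-0.18 to 0.13), ZNF675 (-0.24 to 0.44) and ZNF766 (-0.0070 to 0.43), none of which passed the test with all libraries. Of 162 named genes, 21 lost their call without reversal when the trend was removed, among them CEBPA, MYC, HSP90AA1, PTMA, TICAM1, XRCC3, INCENP, CDCA5, RARA, ERAP2 and RAB1B, 20 with DESeq2 and 6 with library totals. ERAP1 was also lost with library totals (0.09). P-body depths of 9868469 and more and cytosolic depths from 5897625 limit calls mainly for genes of a few CPM, such as RAB1B and JAK3.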
